A study of Mus musculus with 12 samples.

Results

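The libraries compared here are RNA pulled down with tagged ribosomes of mouse dorsal root ganglion (DRG) sensory neurons and the Input RNA of the same lysates, both after an adeno-associated virus (AAV) carrying a short hairpin RNA named for Gpr151. They were chosen by their labels, as 6 of the 12 samples of the series (3 immunoprecipitation, IP, and 3 Input), and all 9073 genes of the deposited count table were taken. The mice were adult and carried the genotype RPL22HA+/+;Advillin-Cre+, which both treatments share. Cre recombinase driven by the Advillin promoter switches ribosomal protein L22 to a haemagglutinin (HA) tagged form in cells that use this promoter, chiefly sensory neurons, and an anti-HA antibody then retains tagged ribosomes with their RNA. The Input holds RNA of every cell in the lysate. The treatments were AAV-shGpr151 and AAV-control. The control IP and Input, the other 6 samples, serve below to show where the enrichment differed. These control libraries also entered the library scaling, the filter on low counts, an ordering of genes by Input level and a choice of depleted genes. The series design speaks of neurons put into culture after a preconditioning injury of the sciatic nerve, whereas the extraction protocol speaks of ganglia collected fresh, and the labels do not settle which applies.

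A ribosome pull-down of this kind reads which messenger RNAs are on ribosomes in the tagged cells, so transcripts of those cells are enriched over Input and transcripts of untagged cells are depleted. DRG neurons are known for neurofilament and peripherin cytoskeletons, sodium channels of pain fibres, vesicular glutamate transport and neuropeptides, and they are wrapped by satellite glia and Schwann cells and stand among macrophages, fibroblasts and vessels. RNA that cytosolic ribosomes do not translate, such as the messages made inside mitochondria, is usually lost in the pull-down.

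The 3 columns of a group varied only as counting noise would have it. Over genes, chi-square divided by its degrees of freedom lay between 0.980 and 1.03 in the 6 pairs within a group and between 134.3 and 134.7 in the 9 pairs of IP against Input. Each group was therefore summed and counted as 1 sample, so that no test across animals or cultures was possible. The Input sum held 6148538 counts and the IP sum 3285258, with a median gene at 30 and 88 counts, and single columns held from 2049114 to 2049893 and from 1094523 to 1095907. Of the 9073 genes, 8312 passed the filter on low counts and 761 did not. Ratios are given as log2 of IP over Input with a 95% interval that covers counting error only, and PCR copies, which carry no molecular identifier here, are not separate molecules. A gene was called where the ratio was 2-fold or more and its interval excluded 0.

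The result depended first on what the libraries were scaled to. On the trimmed mean of M-values (TMM) scale, which centres the bulk of genes, the median tested gene had a log2 ratio of 0.098. On the total-count scale, which compares shares of all counts, the same gene had 2.29. The shift between the scales was 2.19 log2 units, or 4.58-fold, and in the control libraries it was 2.17. On the TMM scale 2134 genes were called higher in IP (25.7% of tested genes) and 2200 were called lower (26.5%), while 3978 were called neither way. On the total-count scale 6322 were called higher (76.1%) and 684 lower (8.23%). Ratios below are on the TMM scale unless total counts are named, and any gene that lies less than 2.19 below 0 on the TMM scale lies above 0 on total counts.

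Genes depleted from IP held a large part of the Input counts, but this covered only part of the gap between the scales. With the 159 genes over 16-fold lower in control IP on total counts left out of the totals, the median moved from 2.29 to 2.00. That alternative was chosen after seeing the data. The 455 genes that were 16-fold or more lower in IP held 43.6% of the Input counts and 5.89% of the IP counts. Leaving out mitochondrially encoded and cytosolic ribosomal protein genes, the remaining 426 still held 28.1% of Input and 2.19% of IP. The opposite tail was smaller, with 79 genes 16-fold or more higher in IP, and only 5 were 64-fold or more higher against 124 that were 64-fold or more lower. The Input was also the more concentrated library, with its 10 most abundant genes at 12% and its 100 most abundant at 49.7% of counts, against 8.04% and 28.5% in IP. Of the genes called higher, 1491 had fewer than 30 summed Input counts, and of those called lower, 446 had fewer than 30 summed IP counts, so their ratios carry wide intervals. The filter, which a gene can pass in any group, bears on these counts. Of the tested genes, 4295 passed on the Input columns alone, and 598 of these (13.9%) were called higher and 2002 (46.6%) lower. The other 4017 needed the IP columns to pass, were therefore scarce in Input, and gave 1536 of the genes called higher. That is 38.2% of them, while 4.93% were called lower. Lists with members scarce in Input, such as channels and some neuronal markers, are subject to this, so their calls are descriptions. The table itself lists no count of 0, its lowest value being 1, so genes absent from any column are not analysed here.

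**Figure D1:**
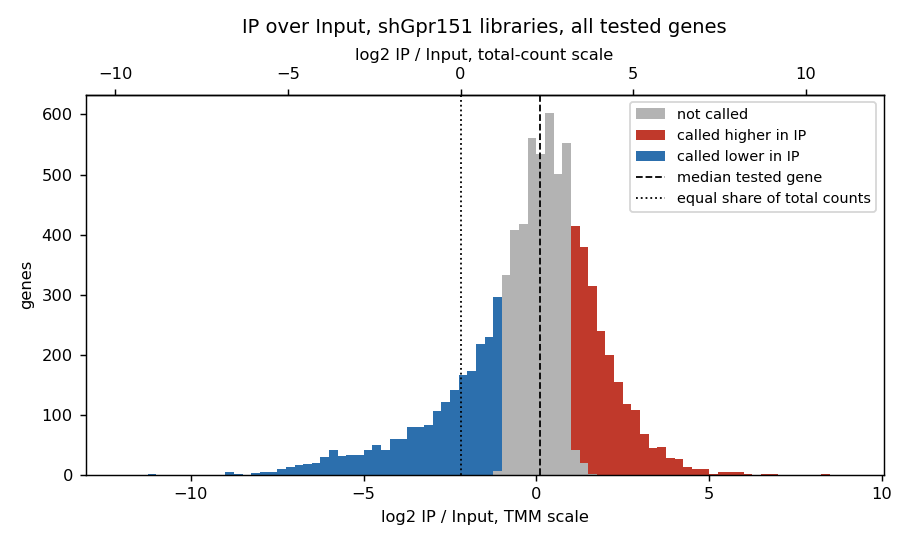
Number of tested genes (y axis) by log2 IP over Input in the shGpr151 libraries, on the TMM scale (lower x axis) and the total-count scale (upper x axis), coloured by the call on the TMM scale. The median gene (dashed line) is at 0.098 on the TMM scale and 2.29 on total counts, so genes between the dotted line and 0 on the lower axis are lower in IP on one scale and higher on the other, and the tail of depleted genes is longer than that of enriched genes.

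Gpr151, the orphan G protein-coupled receptor that the hairpin is named for, was scarce in Input and well represented on ribosomes. Its counts were 4, 4 and 5 in the Input columns and 96, 65 and 89 in the IP columns of shGpr151, against 10, 8 and 6 in Input and 107, 109 and 98 in IP of control. The IP columns lay above the Input columns in both treatments without overlap. As a share of each summed library it stood at 2.11 CPM (counts scaled so that every library has the same total) in Input and 76.1 CPM in IP of shGpr151, and at 3.79 and 74.0 CPM in control. Its log2 ratio was 2.97 (95% interval 2.17 to 3.90) with shGpr151 and 2.11 (1.51 to 2.78) with control, and the difference of 0.86 had an interval of -0.14 to 1.86 that includes 0. As a share of IP counts the targeted receptor was thus not lower in the libraries labelled shGpr151 than in control. As a share of Input counts it was lower, at 2.11 against 3.79 CPM, on only 13 and 24 summed counts. This difference was not tested across samples.

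Rpl22, which encodes the tagged ribosomal protein itself, was depleted. It had 2354, 2441 and 2387 counts in Input and 467, 466 and 403 in IP, and its log2 ratio was -3.72 (95% interval -3.80 to -3.63), or -1.52 on total counts. In control the ratio was -2.80, so the difference between treatments was -0.92. Its message followed the other ribosomal protein genes described further on. Avil, which encodes advillin, an actin-binding protein of sensory neurons whose promoter drives the Cre, had 46, 32 and 34 Input counts and 83, 110 and 100 IP counts. That is a log2 ratio of 0.10 (-0.22 to 0.42), which met no call on the TMM scale, and 2.29 on total counts, which did. Csf1, a cytokine that injured sensory neurons make to recruit and expand microglia and macrophages, stood in the same place, with 10, 28 and 26 Input counts, 56, 51 and 63 IP counts and a ratio of 0.12 (-0.30 to 0.56).

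Neuronal markers were enriched in the pull-down, as its label has it. All 28 pan-neuronal and sensory neuron markers in the table passed the filter. Of these 28 tested pan-neuronal and sensory neuron markers, 20 were called higher in IP and 0 lower, with a median log2 ratio of 2.00 beside 0.098 for all tested genes. All 28 were called higher on total counts. Over all tested genes 25.7% were called higher and 26.5% lower, and 76.1% were called higher on total counts. The markers together made up 0.238% of Input counts and 2.57% of IP counts, and their summed level lay between 2316 and 2426 CPM in the Input columns and between 25465 and 25968 CPM in the IP columns. Whether a lower marker level in bulk RNA comes from fewer cells of a type or from less RNA per cell cannot be told apart.

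Mapt stood highest among these markers. Mapt, which encodes the microtubule-binding protein tau, had 4, 3 and 5 counts in Input and 383, 406 and 385 in IP, a log2 ratio of 5.32 (4.51 to 6.28). Prph, the intermediate filament peripherin of peripheral neurons, had 105, 96 and 94 in Input and 1926, 1934 and 2063 in IP, a ratio of 3.04 (2.87 to 3.21). For both genes every IP column was far above every Input column. At the low end of the list, Ina, the neurofilament partner internexin alpha, had 16, 6 and 22 Input and 19, 20 and 15 IP counts with a ratio of -1.0 (-1.60 to -0.39), and Prdm12, a transcription factor of the nociceptor lineage, had a ratio of -0.83 (-1.83 to 0.20). Neither met the call on the TMM scale, and on total counts both were called higher, at 1.20 and 1.36.

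Some well-known members outside the naming rule, picked after their values were seen, were enriched to a middling degree. Tubb3, a neuronal beta tubulin, had 331, 311 and 343 counts in Input and 2794, 2691 and 2752 in IP, with a log2 ratio of 1.77 (1.68 to 1.87). Nefl, the neurofilament light chain, reached 2.51 (2.37 to 2.67). Uchl1, an abundant neuronal ubiquitin hydrolase, was among the most abundant IP genes at 0.748% of counts, and its ratio was 1.03, with 1704, 1538 and 1684 counts in Input.

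**Figure D2:**
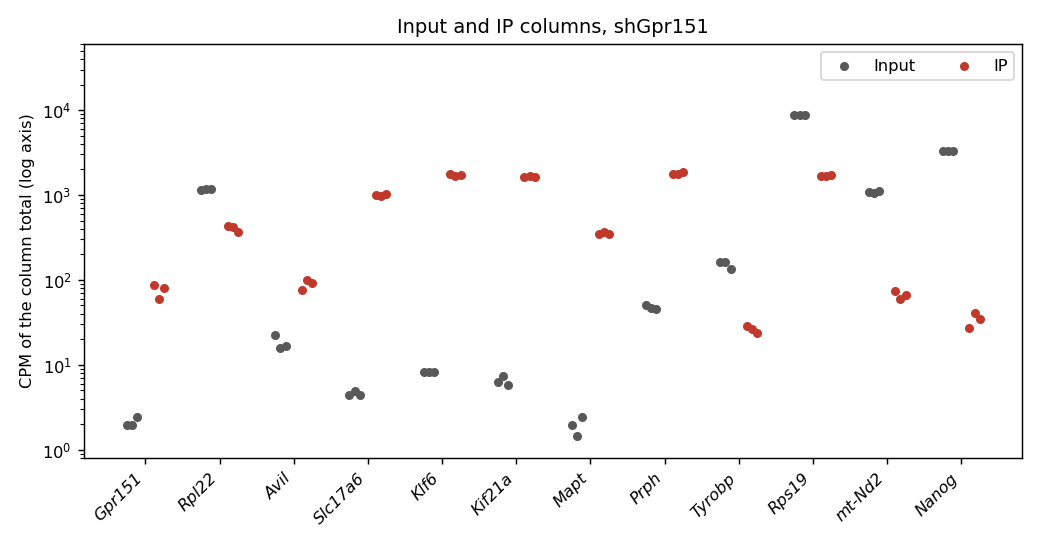
Level of 12 genes in each of the 3 Input columns (grey) and 3 IP columns (red) of shGpr151, in CPM of the column total on a log axis, that is, on the total-count scale. Gpr151, Slc17a6, Klf6, Kif21a, Mapt and Prph are higher in every IP column, Rpl22, Tyrobp, Rps19, mt-Nd2 and Nanog are lower in every IP column, and Avil is higher here although its TMM ratio is 0.10.

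Markers of single kinds of sensory neuron followed the general ones, on small lists. Of 6 tested peptidergic nociceptor markers 4 were called higher and 0 lower, with a median of 1.54. Adcyap1, the neuropeptide PACAP, had 22, 24 and 22 counts in Input and 286, 277 and 284 in IP and a log2 ratio of 2.35 (1.99 to 2.73). The neuropeptide genes Calcb and Gal stood lower, at -0.29 and -0.89, and were not called on the TMM scale. Gal, galanin, which injured neurons make in quantity, had 707, 730 and 741 Input counts and 942, 987 and 949 IP counts, and was called higher on total counts at 1.31. Calca, the calcitonin gene-related peptide gene and likewise picked after its values were seen, had 287, 300 and 270 Input and 1819, 1789 and 1732 IP counts and a ratio of 1.35.

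Of 6 non-peptidergic and itch neuron markers 4 were called higher and 1 lower, with a median of 1.68. Gfra2, the neurturin co-receptor, had a log2 ratio of 2.42 (1.5 to 3.51), and Ret, the signalling receptor for this ligand family, of 1.98 (1.63 to 2.34). The exception was Nppb, a natriuretic peptide of itch neurons, with 12, 7 and 17 Input and 3, 4 and 5 IP counts and a ratio of -2.88 (-3.95 to -1.90). Of 7 mechanoreceptor and proprioceptor markers 5 were called higher and 1 lower, with a median of 1.34. Piezo2, the touch channel, reached 2.84 (2.11 to 3.67), and Spp1, osteopontin, 1.48. Pvalb, a calcium buffer of proprioceptors, was the one called lower, at -2.22 (-2.56 to -1.89), and on total counts it was nearly even at -0.03.

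Markers of other ganglion cells were not uniformly lost. Of 15 tested satellite glia markers, 6 were called higher and 4 lower, beside 25.7% and 26.5% of all tested genes, with a median of 0.46. At the low end, Cryab, a small heat shock protein, had 5777, 5691 and 5713 Input and 1300, 1293 and 1283 IP counts and a log2 ratio of -3.44, and Dbi, an acyl-CoA binding protein, had -3.09. The list thus held members called in both directions, with 5 called neither way, and its summed share was 0.824% of Input and 0.712% of IP.

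Of 12 tested Schwann cell markers 2 were called higher and 5 lower, with a median of 0.16. Mag, the myelin-associated glycoprotein, had 378, 391 and 394 counts in Input and 13, 15 and 11 in IP, a log2 ratio of -6.19 (-6.69 to -5.73). Fxyd1, a sodium pump regulator, was at -2.41. Gldn, the nodal protein gliomedin, and S100b, a glial calcium-binding protein, stood opposite at 2.41 and 1.23. As a share of counts the whole list was higher in IP, at 0.171%, than in Input, at 0.0532%.

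Macrophage and other leukocyte markers had the lowest median of the cell type lists, -1.68, with 3 of 19 called higher and 12 lower. On total counts the median turned to 0.51, with 7 called higher and 4 lower. Tyrobp, an adaptor of myeloid receptors, had 334, 333 and 274 Input and 31, 29 and 26 IP counts, a log2 ratio of -4.74 (-5.08 to -4.42), and Cd52, a leukocyte surface peptide, was at -4.30. These genes were lower on both scales, at -2.55 and -2.11 on total counts. C1qa, a complement component made by macrophages, went the other way, with 16, 12 and 15 Input and 174, 152 and 177 IP counts and a ratio of 2.26 (1.81 to 2.74), as did Coro1a, a leukocyte actin regulator, at 1.39. The list as a whole made up 0.239% of Input counts and 0.371% of IP counts.

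Of 16 fibroblast markers 5 were called higher and 2 lower, beside 25.7% and 26.5% of all tested genes, with a median of 0.36. Lum and Dcn, the matrix proteoglycans lumican and decorin, had log2 ratios of 2.72 and 2.68, whereas Fn1, fibronectin, with 447, 439 and 465 Input and 40, 51 and 49 IP counts, was at -4.56, and Igfbp4 at -3.50. Of 9 endothelial and mural markers 1 was called higher and 3 lower, with a median of -0.14 that became 2.06 on total counts. Pdgfrb, the pericyte growth factor receptor, had a ratio of 1.87. The contractile genes Tagln and Myl9 had -2.39 and -1.95, and on total counts Tagln stayed below 0 at -0.19 while Myl9 was above it at 0.24. None of the 7 erythroid markers was in the table. The part of RNA from other cells in the enrichment of single genes was not tested.

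**Figure D3:**
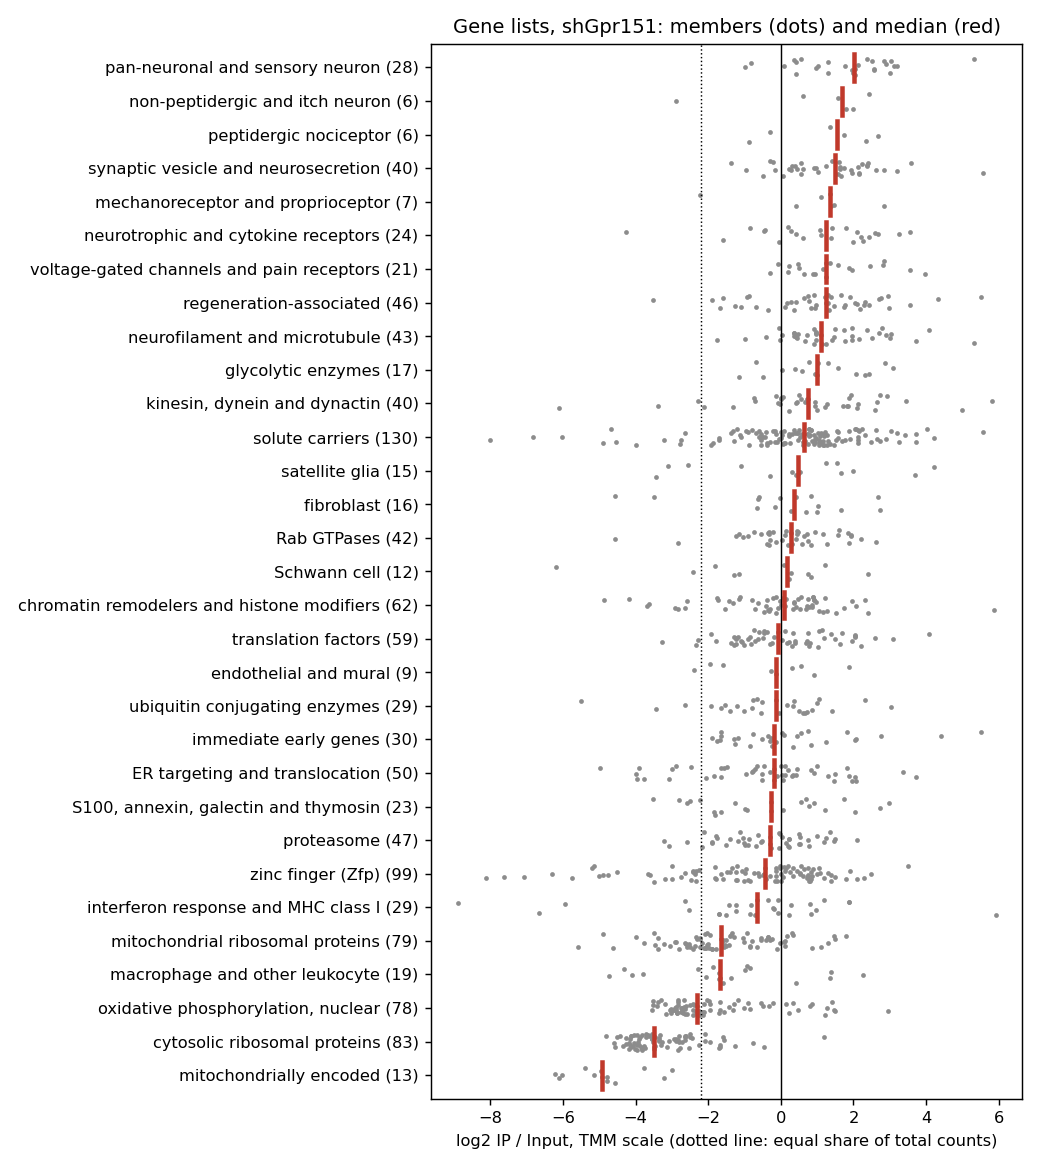
Log2 IP over Input on the TMM scale (x axis) for the tested members (dots) of each gene list (y axis, number tested in brackets) in the shGpr151 libraries, with the median of the list in red. Neuronal lists lie highest, pan-neuronal markers at a median of 2.00, and mitochondrially encoded genes lowest at -4.93, and lists with a median between the dotted line (2.19 below 0) and 0 lie above 0 on the total-count scale.

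The 12 most enriched genes, ranked by the interval bound nearest 0 and not by the ratio, were not mainly classical neuronal markers. Frmd3, a membrane-cytoskeleton adaptor of the FERM family, had 1, 2 and 1 counts in Input and 1149, 1106 and 1129 in IP, and its log2 ratio of 8.43 (7.08 to 10.31) was the highest among the named genes. Gtf2a1, a general transcription factor subunit, had 9, 7 and 6 against 2033, 2035 and 2068, a ratio of 6.83 (6.23 to 7.51). Kif21a, a kinesin motor of axons, had 13, 15 and 12 against 1806, 1846 and 1798, a ratio of 5.80 (5.35 to 6.29). In each of these genes the Input was close to empty while the 3 IP columns agreed closely with each other.

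Klf6, a transcription factor that promotes axon growth, had 17, 17 and 17 Input and 1940, 1821 and 1905 IP counts, a log2 ratio of 5.51 (5.11 to 5.93). Slc17a6, the vesicular glutamate transporter of most DRG neurons, had 9, 10 and 9 against 1097, 1062 and 1112, a ratio of 5.58 (5.04 to 6.17). Degs1, the desaturase that makes ceramide, had 26, 23 and 21 against 2772, 2777 and 2791, a ratio of 5.61. These genes have large IP counts behind them, so their IP level is well measured and the interval is set by the Input. The other genes of the 12 highest by this bound were Ubash3b at 6.82, Tspan14 at 6.57, the clock repressor Cry2 at 6.10, the peptide-trimming enzyme Erap1 at 6.0, the collagen Col6a3 at 5.79 and the neuronal kinase activator Cdk5r2 at 5.60. The control libraries gave ratios between 4.62 and 6.95 for these 12 genes.

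The 12 most depleted genes, ranked by the same bound, were abundant in Input, and many bear the names of genes known from other tissues. Olfr1423, annotated as an olfactory receptor, had 4233, 4183 and 4279 counts in Input and 4, 1 and 8 in IP, a log2 ratio of -11.22 (-12.13 to -10.45). Nanog, a transcription factor known from pluripotent cells, had 6811, 6813 and 6726 against 30, 45 and 38, a ratio of -8.78 (-9.06 to -8.52). Dct, a melanin synthesis enzyme, had 1462, 1536 and 1428 against 10, 11 and 3, a ratio of -8.82, and Pde6g, a phosphodiesterase subunit of photoreceptors, had 1752, 1756 and 1667 against 19, 15 and 9, a ratio of -8.20. The sources used here do not say how reads that overlap several genes or lie in introns were assigned, so these values count reads assigned to the gene and may not be its mature message. The same limit holds for other genes with many Input and few IP counts, such as Mag, Rpn2, Actr10 and Zfp410.

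The remaining genes of the 12 lowest by the bound had log2 ratios between -8.88 and -7.82. They were the nonclassical MHC gene H2-T23 at -8.88, the innate immune regulator Nlrc3 at -8.87, Pbld1 at -8.52, the mitochondrial polymerase subunit Polg2 at -8.51, Zfp131 at -8.12, the interferon-induced Slfn5 at -8.09, the cation channel Trpm2 at -7.94 and the Ras effector Rin1 at -7.82. On total counts all of them stayed below -5. The most abundant gene of the Input, Ccdc62, behaved in the same manner though it fell outside the naming rule. It had 36543, 36543 and 36727 counts in Input and 622, 543 and 529 in IP, that is 1.79% of Input and 0.0516% of IP, and its ratio was -7.31. The IP, by contrast, was headed by S100a6, a calcium-binding protein, at 1.39% of counts and by Myl6, a myosin light chain, at 1.12%.

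The most abundant Input genes were largely those depleted. Only genes that passed the filter on the Input columns alone bear on this, since a gene scarce in Input was kept only where IP was high. The 10 groups of tested genes by CPM in the control Input were therefore read from the seventh up, where all 816, 830, 830 and 831 genes passed in that way. The median log2 ratio with shGpr151 was 0.031, -0.51, -1.58 and -3.30 in these 4 groups, and 23.3%, 37.6%, 63.7% and 91.1% of genes were called lower. The ordering shares no counts with the ratio, but both Inputs have similar profiles, so the level is not independent of the ratio's denominator and the order is a description. On total counts the first 3 of these medians were above 0.

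Cytosolic ribosomal protein genes held the largest share of Input counts of all the lists and were depleted. Of 83 tested genes 80 were called lower and 1 higher, with a median log2 ratio of -3.50, and their share was 31.3% of Input and 11.8% of IP. On total counts the median was -1.31, with 51 called lower and 3 higher. Rps19, a small subunit protein, had 18040, 18087 and 18064 counts in Input and 1856, 1841 and 1867 in IP, a ratio of -4.57 (-2.38 on total counts). Rpl36a, of the large subunit, was lowest at -4.81. The single gene called higher was Rps4l, at 1.18 (0.92 to 1.43), an S4-like copy that RefSeq lists as a transcribed pseudogene. Rplp2, an acidic stalk protein, had 1050, 925 and 944 in Input and 1633, 1654 and 1859 in IP, a ratio of -0.47 on the TMM scale and 1.72 on total counts. Ribosomal protein genes have many near-identical processed pseudogenes, so the split of reads between copies is uncertain.

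Messages of the translation machinery often begin with the 5′ terminal oligopyrimidine motif, a C followed by a run of pyrimidines at the transcript start, through which growth signalling controls their loading on ribosomes. The annotated start was therefore read in the RefSeq promoter table (build GRCm38.p6) for C followed by 4 bases that are each C or T, on the transcript's strand alone and at the first 5 bases alone. Of the 61 ribosomal protein genes with an entry, 14 (23%) held it, against 200 of 6610 tested genes with an entry (3.03%). The windows of some ribosomal protein genes that hold it, followed by 3 of the most enriched genes, show how the starts differ. Each is 30 bases long, 20 before the annotated start and 10 from it on, and the capitals mark the 5 bases read.
Rpl35 (chr2:39005122-39005151, minus strand): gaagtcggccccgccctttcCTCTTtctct
Rpl38 (chr11:114668560-114668589, plus strand): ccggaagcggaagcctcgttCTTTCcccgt
Rps15a (chr7:118116138-118116167, minus strand): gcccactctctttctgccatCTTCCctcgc
Rps6 (chr4:86857358-86857387, minus strand): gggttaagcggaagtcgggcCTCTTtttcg
Rplp2 (chr7:141447631-141447660, plus strand): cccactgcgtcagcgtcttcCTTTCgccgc
Frmd3 (chr4:74013583-74013612, plus strand): aggagagggagggacgggttCTCCTcgcca
Klf6 (chr13:5861469-5861498, plus strand): ccaagcgggggaggagggggGAGGCtggca
Slc17a6 (chr7:51621810-51621839, plus strand): ggaagttggcgagcgggttaGCCAAaagca

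The letters read at the annotated starts did not sort genes by their enrichment. Frmd3, the most enriched gene, holds the same kind of start as Rpl35 and Rps6, but no other of the 12 most enriched genes does. Rplp2, one of the least depleted ribosomal protein genes, holds it too. Among ribosomal protein genes the median log2 ratio was -3.57 with the motif and -3.45 without it. Among the other tested genes it was 0.14 in the 186 with the motif and 0.11 in the rest. These are descriptions of annotated starts, which may differ from the starts used in these cells. A gene counted as without the motif may therefore hold it, and the comparison cannot decide whether the motif goes with enrichment.

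The genes encoded in mitochondrial DNA, whose messages are translated inside the organelle, had the lowest median of all the lists. All 13 were called lower, with a median log2 ratio of -4.93, and 12 of 13 were called lower on total counts, where the median was -2.74. Their share was 1.05% of Input and 0.235% of IP. mt-Nd2, a subunit of complex I, had 2241, 2154 and 2262 counts in Input and 80, 66 and 73 in IP, a ratio of -6.22 (-6.42 to -6.02), and mt-Nd3 was at -6.11. The least depleted were mt-Co1, with 3202, 3267 and 3226 against 853, 866 and 819 and a ratio of -3.22, and mt-Nd4 at -3.0. The control libraries gave a median of -5.21.

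Nuclear genes for mitochondrial proteins, which cytosolic ribosomes do translate, were lower as well on the TMM scale. Of 78 oxidative phosphorylation genes 60 were called lower and 6 higher, with a median log2 ratio of -2.32, which is -0.12 on total counts, where 20 were called higher and 6 lower. Their share of counts was 6.93% in Input and 5.92% in IP. The small subunits Ndufa3, with 4276, 4488 and 4328 Input and 947, 922 and 873 IP counts, and Uqcr10 stood lowest at -3.55 and -3.52. The larger Ndufa10, with 46, 36 and 41 against 767, 767 and 782, and the ATP synthase subunit Atp5b stood highest at 2.94 and 1.47. Of 79 mitochondrial ribosomal protein genes 53 were called lower and 5 higher, with a median of -1.64 that is 0.56 on total counts. Mrpl13 and Mrps26 were at -5.59 and -4.88, and Mrpl19 and Dap3 at 1.80 and 1.47.

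Genes of the excitable membrane were often called higher, but the filter bears on this. Of 21 voltage-gated channels and pain receptors 11 were called higher and 0 lower, with a median log2 ratio of 1.25. All 21 were called higher on total counts, as were 76.1% of all tested genes. The list held only 0.00657% of Input counts. Tested genes that did not pass on the Input columns alone were called higher in 38.2% and lower in 4.93% of cases. How many of the 21 belong to these was not counted, so the calls are a description. Scn9a, the sodium channel Nav1.7 of nociceptors, had 4, 5 and 8 counts in Input and 143, 192 and 153 in IP, a ratio of 3.55 (2.86 to 4.34). Asic3, an acid-sensing channel, had 3, 5 and 5 against 170, 162 and 165, a ratio of 3.97 (3.18 to 4.89). Asic2 and Trpv2 stood at -0.29 and -0.07, with intervals that include 0. Of 24 neurotrophic and cytokine receptors 14 were called higher and 2 lower, with a median of 1.25. Among all tested genes 25.7% were called higher and 26.5% lower. Lifr, the leukaemia inhibitory factor receptor, had 45, 41 and 53 Input and 1335, 1331 and 1357 IP counts and a ratio of 3.56. Tnfrsf21, a death receptor of axons, was at 3.24. Fgfr1 was lowest at -4.26, followed by Tnfrsf12a at -1.60, which is 0.59 on total counts.

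Of 40 synaptic vesicle and neurosecretion genes 22 were called higher and 1 lower, with a median of 1.49. Among all tested genes 25.7% were called higher and 26.5% lower. The filter bears on this list too, since genes that needed the IP columns to pass were called higher in 38.2% and lower in 4.93%. How many members belong to these was not counted, so the calls are a description. Snap25, a membrane fusion protein of nerve terminals, had 31, 16 and 21 Input and 524, 490 and 519 IP counts and a log2 ratio of 3.20 (2.85 to 3.58). While Slc17a6 was among the most enriched genes, its relative Slc17a7 had 17, 11 and 6 against 13, 14 and 5, with a ratio of -1.38 (-2.12 to -0.64), which is 0.82 on total counts. Without the first Input column Slc17a7 was at -0.96 and met no call. Sncg, gamma synuclein, an abundant DRG protein, was at -0.97 and uncalled, or 1.23 on total counts.

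Of 43 neurofilament and microtubule genes 22 were called higher and 1 lower, with a median of 1.11. Among all tested genes 25.7% were called higher and 26.5% lower. Next to Mapt stood Dpysl2, the growth cone protein CRMP2, with 27, 22 and 21 Input and 996, 950 and 956 IP counts and a log2 ratio of 4.08 (3.74 to 4.45). The gene called lower was Map4, at -1.75, which is 0.45 on total counts. Of 40 kinesin, dynein and dynactin genes, the motors of axonal transport, 16 were called higher and 5 lower, with a median of 0.75. Tested genes that did not pass on the Input columns alone were called higher in 38.2% and lower in 4.93% of cases. How many members of either list belong to these was not counted, so both sets of calls are descriptions. Dync1li2, a dynein light intermediate chain, had a ratio of 4.97 (4.49 to 5.50) from 9, 14 and 12 against 941, 880 and 870 counts. Actr10, a dynactin subunit, had 7733, 7931 and 7863 against 294, 272 and 270 and a ratio of -6.11, and Dynlt1b was at -3.39. Members of the dynein and dynactin complexes thus stood far apart.

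Of 46 regeneration-associated genes, which injured sensory neurons switch on, 24 were called higher and 6 lower, with a median of 1.23. Ecel1, an endopeptidase induced by nerve injury, had 10, 5 and 3 Input and 313, 253 and 316 IP counts, a log2 ratio of 4.32 (3.66 to 5.09), second to Klf6. Lgals1, galectin 1, was lowest at -3.52, with 29803, 29680 and 29847 counts against 6366, 6314 and 6420, and Npy, a neuropeptide of injured large neurons, was at -1.89, which is 0.30 on total counts. Of 30 immediate early genes 7 were called higher and 8 lower, with a median of -0.18 that is 2.01 on total counts. These calls lie near the shares of all tested genes, 25.7% higher and 26.5% lower, and give no result about the list. Ier5l reached 4.42 (3.49 to 5.56). Ier2 and Zfp36l2 were at -1.89 and -1.66, and at 0.30 and 0.53 on total counts.

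Translation factors lay near the shares of all tested genes, of which 25.7% were called higher and 26.5% lower. Of 59 translation factors 16 were called higher and 15 lower, with a median of -0.07 that is 2.12 on total counts. Eif2s3x, the X-linked subunit of initiation factor 2, had 16, 16 and 18 Input and 702, 678 and 696 IP counts and a log2 ratio of 4.09 (3.68 to 4.52), and Etf1, a termination factor, was at 3.08. Abce1, a ribosome recycling factor, had 287, 315 and 320 against 72, 83 and 79 and a ratio of -3.27, and Eif3k, an initiation factor subunit, was at -2.34. Their calls thus give no result about the list.

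Of 50 genes for targeting and translocation at the endoplasmic reticulum (ER) 10 were called higher and 15 lower, again near the shares of all tested genes, with a median log2 ratio of -0.19 that is 2.00 on total counts. The ribophorins Rpn1 and Rpn2, subunits of one oligosaccharyltransferase, stood at 3.37 (2.98 to 3.79) and -4.98 (-5.08 to -4.89), from 16, 20 and 19 Input and 458, 489 and 447 IP counts for Rpn1 and 4052, 4021 and 4114 against 326, 310 and 308 for Rpn2. The 2 genes were far apart in Input, at 8.95 and 1982 CPM, and closer in IP, at 424 and 287 CPM. Sec62 and Sec61g, both of the translocation channel, stood at 3.73 and -3.98. Of 47 proteasome genes 6 were called higher and 15 lower, with a median of -0.30 that is 1.90 on total counts. The ATPase Psmc5 and the non-ATPase subunit Psmd3 had 1.47 and 2.10, and the small subunit Sem1 and the assembly chaperone Psmg4 had -3.21 and -3.08. Of 29 ubiquitin conjugating enzyme genes 4 were called higher and 9 lower, with a median of -0.15, or 2.05 on total counts, from Ube2h at 3.04 to Ube2d3 at -5.50. The shares of all tested genes, to set beside these lists, were 25.7% called higher and 26.5% lower.

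Glycolytic enzymes were higher in part, with 8 of 17 called higher and 1 lower and a median log2 ratio of 0.99. Their share of counts was 0.186% in Input and 1.31% in IP. Pkm, pyruvate kinase, had 294, 312 and 290 Input and 6255, 6168 and 6160 IP counts and a ratio of 3.08 (2.99 to 3.18), and Aldoc, the neural aldolase, was at 2.85. Gapdh, often used as a reference gene, had 2117, 2035 and 2069 against 2136, 2380 and 2396, so that it was called lower at -1.14 on the TMM scale and higher at 1.06 on total counts. Of 130 solute carriers 49 were called higher and 21 lower, with a median of 0.63, from the zinc carrier Slc30a9 at 4.22, next after Slc17a6, to the vitamin C transporter Slc23a1 at -8.00. Of 42 Rab GTPases, the switches of vesicle traffic, 10 were called higher and 5 lower, with a median of 0.29. The shares of all tested genes were 25.7% called higher and 26.5% lower. Rab15 and Rab1a were at 2.62 and 2.21, and Rab33b and Rab1b at -4.58 and -2.82.

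Nuclear regulators and immune genes had members far from 0 in both directions. Of 62 chromatin remodelers and histone modifiers 11 were called higher and 15 lower, with a median log2 ratio of 0.09. Over all tested genes 25.7% were called higher and 26.5% lower, so these calls give no result about the list. Smarca2, the ATPase BRM of the SWI/SNF remodeler, had 1, 3 and 1 counts in Input and 250, 225 and 246 in IP, a ratio of 5.88 (4.65 to 7.51), and the histone demethylase gene Kdm2a was lowest at -4.87. Of 99 tested Zfp zinc finger genes 12 were called higher and 39 lower, with a median of -0.44 that is 1.75 on total counts. Zfp410 had 17185, 17127 and 17369 Input and 203, 215 and 220 IP counts and a ratio of -7.63, whereas Zfp664 was at 3.50. Of 29 interferon response and MHC class I genes 4 were called higher and 11 lower, with a median of -0.66 that is 1.53 on total counts. Ifit1, an interferon-induced RNA sensor, had 2, 1 and 2 against 260, 239 and 237 and a ratio of 5.91 (4.68 to 7.54), while Samhd1, a nucleotide hydrolase, was at -6.67. Of 23 S100, annexin, galectin and thymosin genes 5 were called higher and 9 lower, with a median of -0.26 that is 1.93 on total counts, from Anxa6 at 2.99 to Lgals1.

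The enrichment with the hairpin resembled that with the control virus. Over the 8312 tested genes the log2 ratios of the 2 treatments had a Pearson correlation of 0.951, a description across genes, which are not independent replicates. The ratios with shGpr151 and with control rest on separate libraries. Of the genes called higher with shGpr151, 1573 were called higher in control too, 73.7% of the shGpr151 calls and 81.9% of the 1920 control calls. Of those called lower, 1863 were shared, 84.7% of the shGpr151 calls and 89.2% of the 2088 control calls. The median difference, shGpr151 minus control, was 0.059 and its median absolute size 0.41. A 2-fold difference with an interval excluding 0 was met by 362 genes in the higher direction (4.36% of tested genes) and 218 in the lower (2.62%). With 1 sample a group, these differences compare libraries and not treatments. When the call asked for the whole interval beyond 2-fold, 8 and 13 genes were left.

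The largest difference was in Pabpc1, the poly(A)-binding protein of the cytoplasm. It had 132, 114 and 125 counts in Input and 127, 153 and 104 in IP of shGpr151, against 3907, 3903 and 3892 in Input and 149, 163 and 190 in IP of control. The Input columns of the treatments were thus far apart, at 60.3 and 1848 CPM of the summed libraries, while the IP levels were close, at 117 and 118 CPM. The log2 ratio was -1.24 with shGpr151 (0.95 on total counts) and -6.14 with control, a difference of 4.90 (4.66 to 5.14). Cbwd1 was the reverse case, with 144, 118 and 135 in Input and 12, 5 and 10 in IP of shGpr151 against 32, 32 and 29 and 9, 17 and 18 in control, ratios of -5.17 and -2.68 and a difference of -2.49 (-3.26 to -1.73). Here too the Input moved more than the IP, from 14.7 to 64.6 CPM against 10.4 to 8.22 CPM.

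The other genes named for a higher enrichment with shGpr151 were the satellite glia cadherin Cdh19 with a difference of 2.72, Nacc1 with 2.37, Heca with 2.32, the ubiquitin ligase regulator Cand1 with 1.82 and Lrrc17 with 1.38. Cdh19 was the 1 gene called in opposite directions in the 2 treatments, at 1.54 and -1.18. Cdh19, Nacc1 and Heca had between 8 and 10 summed Input counts with shGpr151, and Heca was at 1.12 without the third Input column, where it met no call. The other genes named for a lower enrichment were Tprkb with -1.85, Kxd1 with -1.82, Rnf181 with -1.54, Cep85 with -1.48 and the ribosomal protein gene Rpl9 with -1.44. The ratios with shGpr151 were -2.0 for Tprkb, -1.13 for Kxd1, -1.70 for Rnf181 and -1.70 for Rpl9, and on total counts each of the 4 was above 0, at 0.20, 1.07, 0.50 and 0.50, while that of Cep85 was -3.76. Kxd1 had columns that spread more than those of most genes, 23, 59 and 25 in Input and 59, 22 and 39 in IP, so that its columns overlapped, and it met no call without the second Input column (-0.55) or the second IP column (-0.84).

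**Figure D4:**
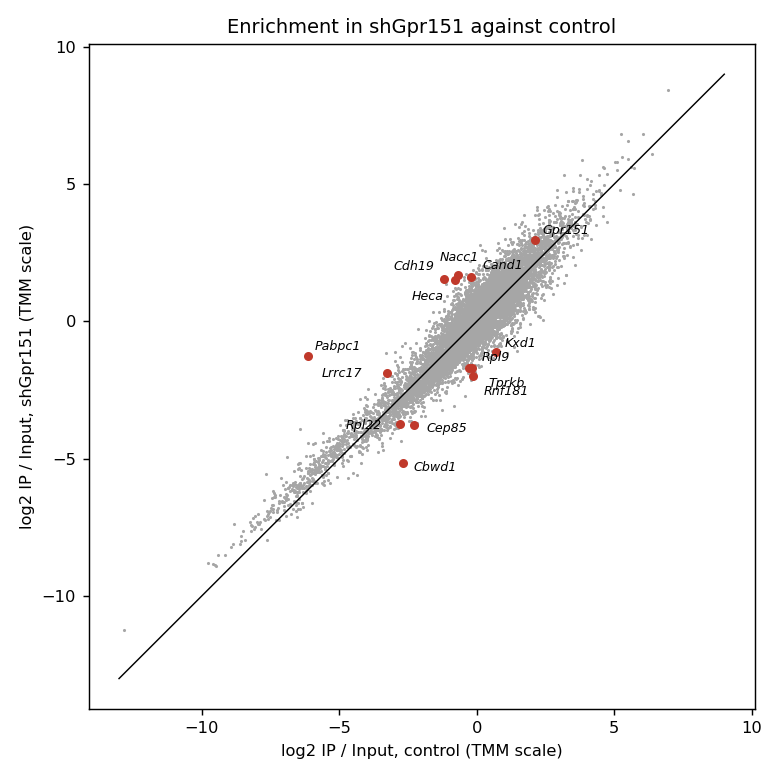
Log2 IP over Input on the TMM scale with shGpr151 (y axis) against control (x axis) for the 8312 tested genes (grey), with the line of equality. Red points are Gpr151, Rpl22 and the 12 genes named for the size of their difference, of which Pabpc1 lies farthest from the line at a difference of 4.90, and a change to the total-count scale would move all points by nearly the same amount along both axes (2.19 and 2.17).

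Lists differed between the treatments by small amounts. Over all tested genes the median difference was 0.059 and its median absolute size 0.41, with 4.36% called higher and 2.62% lower. The share of all tested genes above 0 was not counted, so the signs below are descriptions. The ribosomal protein genes had a median log2 ratio of -2.97 in control and -3.50 with shGpr151, the difference was below 0 in 79 of 83 genes with a median of -0.50, and 4 of them were called. Their share of Input counts was 26.2% in control and 31.3% with shGpr151, and of IP counts 12.6% and 11.8%. Proteasome genes had a difference below 0 in 41 of 47, with a median of -0.41 and 2 called. Differences in the voltage-gated channels and pain receptors leaned the other way, with a median of 0.79, 15 of 21 above 0 and 3 called. Members of this list were scarce in Input and their intervals wide, for example 0.99 (-0.02 to 2.01) for Asic3 and -1.09 (-2.48 to 0.31) for Asic2. Fibroblast markers had 15 of 16 above 0 with a median of 0.40 and 1 called, and the mitochondrially encoded genes 12 of 13 with a median of 0.42 and 0 called. The pan-neuronal markers had a median difference of 0.25, with 2 called higher and 1 lower of 28.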

How the data were processed

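Per the labels' protocols, libraries came from a cDNA-PCR barcoding kit for nanopore sequencing, and the submitters' processing notes name minimap2, Salmon and the builds GRCm39 and mm39 without versions. The authors deposited raw gene counts in whole numbers, with a lowest value of 1. Whether strand was used and how reads shared by genes were treated is not stated in these sources. Symbols were matched to 9061 of 9073 gene IDs, and 12 had none.

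The 3 columns of a group were summed, since every pair within a group had a chi-square per degree of freedom under 1.5. Whether they came from separate animals or cultures is not stated. TMM factors came from edgeR 4.0.16 (R 4.3.3) on all 12 columns after filterByExpr at a minimum count of 10. Ratios are of summed counts over summed effective library sizes or total counts, with exact conditional binomial (Clopper-Pearson) 95% intervals (scipy 1.17.1), and the difference between treatments has a Wald interval based on counting error. The calculation was tested on simulated counts with a common profile in all groups, apart from genes changed equally often up and down. Genes with low counts were left out of that check. It lacks the difference in composition between Input and IP, so it does not test the choice of scale or ratios from near-empty Inputs. Same-numbered columns did not deviate together (correlations -0.0148, 0.0165 and -0.00803 over 2944 genes), so the numbers were not used as pairs.

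The members, the 33 gene lists and the tests were chosen with earlier results of these data known. Named were Gpr151, Rpl22, Avil and Csf1, the 12 called genes with the interval bound farthest from 0 in each direction and columns without overlap (no predicted models, Riken clones or pseudogenes), the 2 highest and 2 lowest members of each of the 31 lists with at least 5 tested members, and 6 genes in each direction for the difference. A few genes taken by this rule are not reported here. Alternatives were RLE factors, other TMM reference sets, other filters and call rules, edgeR and DESeq2 1.42.0 on the columns, and each column left out. Start sequences came from the RefSeq promoter table (GRCm38.p6). A planned comparison by protein length was not run, as no protein sequences were used here. Figures were drawn with matplotlib 3.10.9.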

Additional observations from a re-analysis of the deposited data

Results flagged for a closer look

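In 5 named genes the log2 IP over Input ratio lay above 0 in one treatment and below 0 in the other, with both counting intervals excluding 0. The difference, shGpr151 minus control, was 2.72 for Cdh19, 2.37 for Nacc1, 2.32 for Heca, -1.82 for Kxd1 and -0.95 for Rplp2. With 1 sample a group the difference between treatments was not tested across samples, and on total counts all 5 ratios with shGpr151 were above 0, at 3.74, 3.87, 3.71, 1.07 and 1.72, as were those with control, whose scales lie 2.17 apart. For Cdh19, Nacc1 and Heca the Input counts were 36, 31 and 30 in control and 8, 10 and 8 with shGpr151, while the IP counts were 48, 58 and 52 in control and 57, 78 and 56 with shGpr151. For Rplp2 the Input columns lay between 591 and 684 counts in control and between 925 and 1050 with shGpr151.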

How the results depend on the processing

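On total counts in place of TMM, 6322 genes were called higher and 684 lower, and leaving out of the totals the genes over 16-fold lower in control IP, an alternative chosen after seeing the data, gave 5986 and 790. Asking for a mean of 20 counts left 3533 called higher on total counts and 71 with a lower enrichment than control. Asking for the whole interval beyond 2-fold left 1135 called higher on the TMM scale and 8 and 13 for the difference between treatments (higher and lower), and a 1.5-fold rule gave 726 and 593 for the difference. With the columns taken as replicates, which they are not shown to be, edgeR called 153 and 122 differences, DESeq2 71 and 95, and edgeR with the replicate number as a block 157 and 122. The block left 2129 higher and 2192 lower on the TMM scale, within 1.5 times the main counts. With 1 column left out, 2075 to 2110 genes were called higher and 2196 to 2228 lower on the TMM scale, 6282 to 6319 and 684 to 690 on total counts, and 281 to 368 and 210 to 279 for the difference. Of 142 named genes called, 3 lost the call without a column (Heca at 1.12, Kxd1 at -0.55 and -0.84, Slc17a7 at -0.96). The comparison by protein length was not run.

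List medians below 0 on the TMM scale that turned positive on total counts, and then with the depleted genes left out of the totals, were macrophage and other leukocyte (0.51, 0.22), endothelial and mural (2.06, 1.77), ER targeting (2.00, 1.71), proteasome (1.90, 1.61), interferon and MHC class I (1.53, 1.25), S100 and annexin (1.93, 1.64), immediate early (2.01, 1.72), mitochondrial ribosomal (0.56, 0.27), Zfp (1.75, 1.46) and ubiquitin conjugating (2.05, 1.76). A mean of 20 counts turned the immediate early median to 0.90 and the ubiquitin conjugating one to 0.13, and with 1 column left out the endothelial one ran from -0.27 to 0.12, the latter without the first Input column. Named genes that turned positive on total counts were Gapdh (1.06), Ier2 (0.30), Kxd1 (1.07), Lrrc17 (0.31), Map4 (0.45), Myl9 (0.24), Npy (0.30), Pabpc1 (0.95), Rnf181 (0.50), Rpl9 (0.50), Slc17a7 (0.82), Tnfrsf12a (0.59), Tprkb (0.20) and Zfp36l2 (0.53).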

Other observations

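Genes that RefSeq lists as pseudogenes or noncoding were few in the table. Of 16 tested pseudogenes 2 were called higher in IP and 11 lower, beside 25.7% and 26.5% of all tested genes. Their median log2 ratio was -2.61 on the TMM scale, beside 0.11 for 8131 protein-coding genes. RefSeq lists 4 more tested genes as transcribed pseudogenes. Their median was 0.34, with 1 called higher (Rps4l, described above) and 1 lower. The ribosomal protein copy Rpl10-ps3 had 12950 summed Input and 3683 summed IP counts and a ratio of -3.10, and the ferritin copy Ftl1-ps1 had 3903 and 688 and a ratio of -3.79, values near those of many ribosomal protein genes. Reads of a pseudogene and its parent may not be separable. Gm9844 stood apart from them, with 231 and 2609 counts and a ratio of 2.21.

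Of 11 tested long noncoding RNAs 2 were called higher and 5 lower, with a median of -0.54 that is above 0 on total counts. Gm28042 and Kantr were lowest at -5.53 and -5.37, followed by Snhg11, a neuronal host transcript of small nucleolar RNAs, at -4.74 from 886 Input and 81 IP counts. Tug1, found in nucleus and cytoplasm, was the highest, with 9 Input and 132 IP counts and a ratio of 2.58 (1.62 to 3.74), and the other one called higher was 1500011B03Rik at 1.24. Noncoding RNAs were thus not uniformly absent from the pull-down. These genes, apart from Tug1 and Snhg11, were picked after their values were seen.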
